A study of Zea mays with 3 samples.

Results

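Cytokinin degradation and cytokinin-O-glucoside biosynthesis were followed in developing maize anthers through 6 genes. The members are every probe that the study's supplementary tables pair with the cytokinin degradation gene GRMZM2G348452, known as CKX10, or with 5 genes that the study places in cytokinin-O-glucoside biosynthesis, GRMZM2G041699, GRMZM2G082249, GRMZM2G113794, GRMZM2G160523 and GRMZM2G004858. These are 7 of the 42034 probes of the array, since GRMZM2G082249 has a pair of probes and each other gene has 1. The supplementary tables describe GRMZM2G041699 as cytokinin-O-glucosyltransferase 2 and GRMZM2G082249 as cytokinin-O-glucosyltransferase 3, and they give no enzyme name for the other pathway genes. The study chose these genes partly on their levels in the Mu-inactive line at 1.0 mm in these same arrays, so those levels are given as a description, and a change measured from 1.0 mm in that line is not independent of the choice. Nor are the ratio of the lines at 1.0 mm and its change from 1.0 mm, which hold the same values.

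The experiment set a Mu-active maize line against a Mu-inactive one in whole anthers at lengths of 1.0 mm, 1.5 mm and 2.0 mm. Mutator (Mu) elements are DNA transposons whose movement in maize depends on an autonomous element, MuDR. RNA of both lines was hybridized to each of 12 arrays with 2 channels, 4 arrays per stage, and the line in Cy5 was exchanged with the line in Cy3 in 2 of the 4. The plants were grown in the field, no treatment was applied, and each activity state was represented by 1 line, so that a difference between the lines covers whatever else differs between them. The labels do not state whether the arrays of a stage used separate plants, and p-values then measure only the spread among these arrays.

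Cytokinins are adenine-derived hormones that promote cell division. Cytokinin dehydrogenases such as CKX10 remove the side chain and end the activity of the hormone irreversibly, whereas O-glucosyltransferases attach glucose to the side chain of zeatin-type cytokinins and give an inactive storage form from which the hormone can be released again. Isopentenyl transferases begin cytokinin synthesis, N-glucosyltransferases attach glucose to the purine ring, and histidine kinase receptors pass the signal to response regulators.

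The probe sequence was at hand for 1 member, the dimmer probe of GRMZM2G082249, A_92_P021162. It is printed because this probe and A_92_P014700 report the same gene at different brightness, and all of it is in lower case since no motif was sought in it.
A_92_P021162: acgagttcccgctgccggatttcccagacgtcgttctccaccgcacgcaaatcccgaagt
This oligonucleotide is 60 bases long with a GC content of 60%. In a table of the B73 maize assembly Zm-B73-REFERENCE-NAM-5.0, which is not the source of the probe annotation, GRMZM2G082249, GRMZM2G113794 and GRMZM2G160523 are all on chromosome 2, GRMZM2G348452 is on chromosome 1, GRMZM2G004858 on chromosome 3 and GRMZM2G041699 on chromosome 4.

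All values are normalized intensities on a linear scale, and levels of different probes are not comparable with each other. Raw channel medians were 1.21 to 3.15 times the negative control mean, and the scanner software called between 68% and 94.2% of probes well above background. A probe was scored as ON where at least 3 of 4 arrays exceeded the negative controls by 3 SD, and this cutoff lay between 78.7 and 90.4. The arrays of each stage lay on 1 slide of their own, 3 slides in all, and the effects of stage and of slide cannot be told apart. The line in each channel was taken from the study's 1.0 mm intensities and the deposited ratios, whereas the dyes in the sample description, read by replicate number, would exchange the lines, turn the sign of every line difference below and give the levels and stage changes of each line to the other. With the assignment used, a MUDRB probe was brighter in the Mu-active line in 12 of 12 arrays, a MUDR-TIRA probe in 11, and the MUDRA probes in 8 and 6. The 6 probes of 4 meiotic genes were ON in both lines at all 3 stages, except 1 in the Mu-inactive line at 1.5 mm. Whether these transcripts are limited to germinal cells was not tested. The summed intensity of these probes ranged over the arrays and both lines from 805.7 to 1025 at 1.0 mm, from 727 to 888.9 at 1.5 mm and from 649.2 to 792.3 at 2.0 mm. The mean of each probe was only 1.06 to 2.38 times the cutoff, and the probes did not all fall. In the Mu-inactive line Ameiotic1 had means of 197.7, 162.1 and 118.9 over the 3 stages, and Poor homologous synapsis1 had 113.1, 139.6 and 109.9. In whole anthers, fewer cells of a type and less RNA per cell cannot be told apart.

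All 7 member probes were ON in both lines at each of the 3 stages. GRMZM2G004858 in the Mu-inactive line at 1.5 mm was ON in 3 of 4 arrays, and every other probe, line and stage was ON in 4 of 4. No spot of a member was saturated or carried an outlier flag. The members split into 5 probes whose mean intensities were between 4.15 and 30.9 times the cutoff, and 2, GRMZM2G004858 and A_92_P021162 of GRMZM2G082249, whose means were at most 1.48 times the cutoff.

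**Figure D1:**
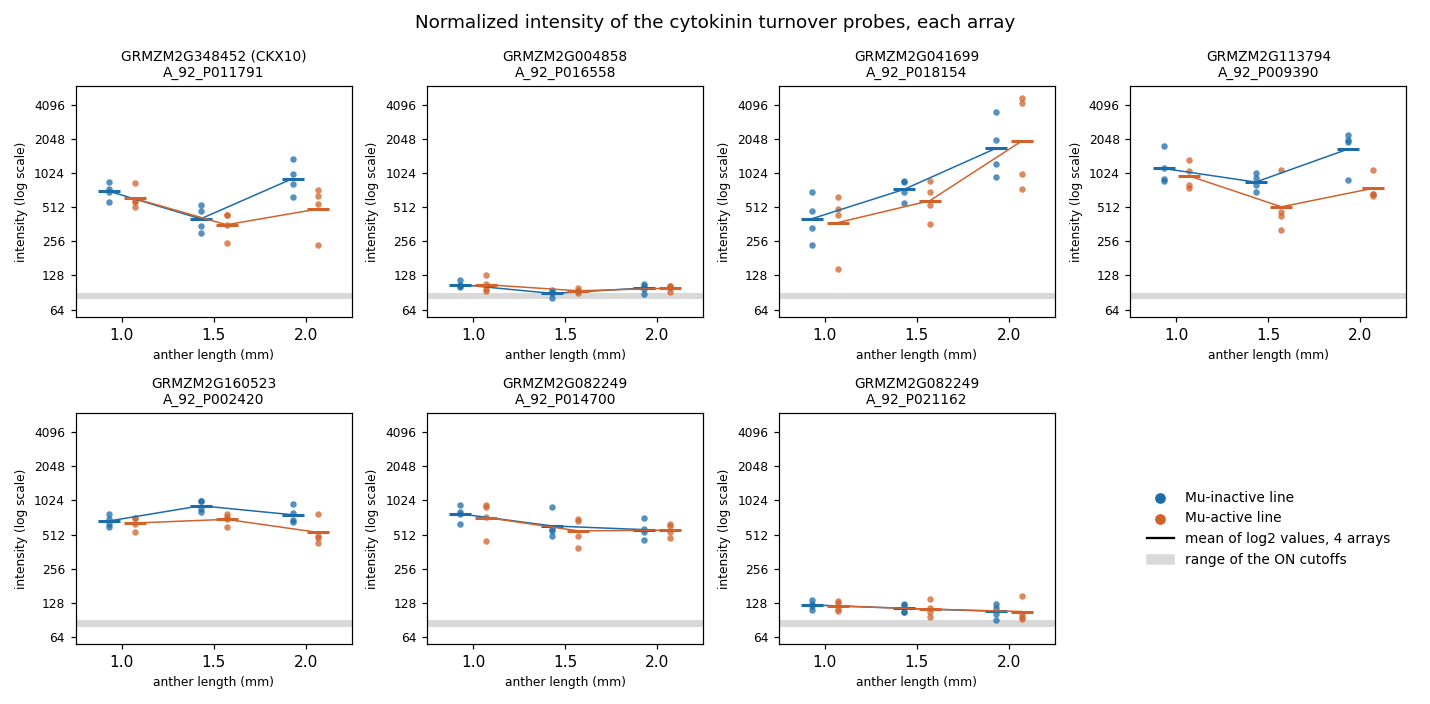
Normalized intensity (log axis) of the 7 member probes in each array, by anther length in mm and by line, where a point is 1 array, a short bar is the mean of the log2 values and the grey band spans the cutoffs for ON, 78.7 to 90.4. GRMZM2G041699 was highest at 2.0 mm in both lines, CKX10 was lowest at 1.5 mm in both lines, and GRMZM2G004858 and A_92_P021162 lay close to the cutoffs, with some arrays of GRMZM2G004858 within the band.

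CKX10 (GRMZM2G348452), the cytokinin-degrading dehydrogenase, was high at 1.0 mm, low at 1.5 mm and high again at 2.0 mm in the Mu-inactive line. In that line its intensity was 741, 568.4, 704.4 and 858 in arrays 1 to 4 at 1.0 mm (718 ± 119, SD, n = 4). It was 532.2, 351.9, 472.5 and 303.6 at 1.5 mm (415.1 ± 106, SD, n = 4). It was 624.9, 1366, 821.8 and 1012 at 2.0 mm (956.3 ± 316, SD, n = 4). Every array at 1.5 mm was below every array at 1.0 mm and at 2.0 mm, whereas the 1.0 mm and 2.0 mm arrays overlapped. The rise from 1.5 mm to 2.0 mm was 2.27-fold (log2 change 1.18, standard error 0.255) and passed the test at an adjusted p of 0.0188 in limma. The decrease from 1.0 mm to 1.5 mm, a log2 change of -0.81 (standard error 0.255), did not pass it (adjusted p = 0.0683 in limma). The 1.0 mm level of this line took part in the choice of the gene, so this decrease is not independent of the choice. Without the arrays numbered 2, 3 or 4 the rise did not pass (adjusted p = 0.0768, 0.0984 and 0.116 in limma). Without number 1 it passed (adjusted p = 0.0249 in limma). Its log2 change stayed between 0.92 and 1.5. Fewer of all probes passed too, 6.91%, 2.34%, 4.35% and 5.62% without numbers 2, 3, 4 and 1, against 10.3% with all arrays.

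In the Mu-active line CKX10 had intensities of 513.9, 837.2, 579.9 and 564.6 at 1.0 mm (623.9 ± 145, SD, n = 4). At 1.5 mm they were 247.1, 437.2, 353.7 and 433.8 (368 ± 89.3, SD, n = 4). At 2.0 mm they were 237, 729.1, 638.6 and 546.2 (537.7 ± 214, SD, n = 4). Here too the 1.5 mm arrays were all below the 1.0 mm arrays, but array 1 at 2.0 mm was the lowest value of this probe in either line. The log2 changes of -0.77 from 1.0 mm to 1.5 mm and 0.47 from 1.5 mm to 2.0 mm did not pass the test (adjusted p = 0.205 and 0.499 in limma). Ordered by mean, the 6 combinations of line and stage ran from the Mu-active line at 1.5 mm up to the Mu-inactive line at 2.0 mm, a 2.6-fold span, and neighbours in this order overlapped throughout.

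Between the lines, CKX10 was lower in the Mu-active line in 4 of 4 arrays at 2.0 mm. The log2 ratio of Mu-active over Mu-inactive was -1.4, -0.91, -0.36 and -0.89 in arrays 1 to 4, for an estimate of -0.89 (standard error 0.275, 95% interval -1.5 to -0.28), or 1.85-fold lower. The unadjusted p was 0.00912 and the p adjusted over all probes was 0.203 in limma, so the difference did not pass. At 1.0 mm and 1.5 mm the log2 ratios of -0.21 and -0.17 were each smaller than their standard error of 0.275, with 3 of 4 and 2 of 4 arrays lower in the Mu-active line.

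GRMZM2G041699, annotated as a cytokinin-O-glucosyltransferase, showed the widest range of the members and was brightest at 2.0 mm in both lines. In the Mu-inactive line its intensity was 704.9, 474.5, 339 and 239.4 at 1.0 mm (439.4 ± 201, SD, n = 4). It was 873.6, 704.3, 552.8 and 863.3 at 1.5 mm (748.5 ± 152, SD, n = 4). It was 3533, 941.5, 2019 and 1233 at 2.0 mm (1932 ± 1160, SD, n = 4). Every 2.0 mm array was above every array of the other stages. From 1.0 mm to 2.0 mm the gene rose 4.18-fold (log2 change 2.06, standard error 0.392, 95% interval 1.19 to 2.93, adjusted p = 0.00595 in limma). The intermediate steps of 0.86 and 1.2 on the log2 scale did not pass (adjusted p = 0.189 and 0.081 in limma), although the second did without the arrays numbered 2 (log2 change 1.47, adjusted p = 0.0347 in limma). For the change over both steps, leaving out the arrays numbered 3 gave an adjusted p in limma of 0.0706, and leaving out numbers 1, 2 or 4 gave 0.0152, 0.00416 and 0.0448. The share of all probes that passed was 7.89%, 12.7%, 11.9% and 9.9% in this order, against 17.5%.

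Mu-active anthers had GRMZM2G041699 intensities of 489.7, 146.2, 628.3 and 438.6 at 1.0 mm (425.7 ± 203, SD, n = 4). At 1.5 mm they were 869.1, 536.4, 694.4 and 360.8 (615.1 ± 217, SD, n = 4). At 2.0 mm they were 4295, 4673, 745.2 and 999.8 (2678 ± 2090, SD, n = 4). The 2.0 mm arrays fell into a high and a low pair, and the low pair still lay above all 1.0 mm arrays. From 1.0 mm to 2.0 mm the gene rose 5.25-fold (log2 change 2.39, standard error 0.64, 95% interval 0.97 to 3.82, adjusted p = 0.0349 in limma). Without the arrays numbered 1, 2 or 4 the adjusted p in limma was 0.203, 0.14 and 0.0726, and without number 3 it was 0.0434. Fewer of all probes passed too, 3.88%, 6.05%, 11.1% and 6.15% in this order, against 13.9%. Without normalization between arrays, where the median of all probes was -0.49, the change was 1.45 and did not pass (adjusted p = 0.135 in limma). Nor did it pass with the array number as a block (adjusted p = 0.0608 in limma).

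No difference between the lines beyond the array spread was found at GRMZM2G041699. The log2 ratio of Mu-active over Mu-inactive was -0.12 at 1.0 mm, -0.33 at 1.5 mm and 0.21 at 2.0 mm, each with a standard error of 0.584. At 2.0 mm the arrays gave 0.28, 2.31, -1.44 and -0.3, and the 95% interval of -1.09 to 1.52 admits a difference of more than 2-fold in either direction. The ratio moved with the dye at this stage, with a mean of 1.3 in the arrays with the Mu-active line in Cy3 and -0.87 in those with it in Cy5. At 1.0 mm the order of the dyes was the reverse, with -1.11 and 0.88. No difference between the lines in the rise from 1.0 mm to 2.0 mm was detectable, with a difference in log2 change of 0.33 (95% interval -1.52 to 2.17, adjusted p = 0.972 in limma).

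GRMZM2G113794, another gene of the cytokinin-O-glucoside pathway, was brightest in the Mu-inactive line at 2.0 mm. In that line its intensity was 871.7, 909.9, 1785 and 1137 at 1.0 mm (1176 ± 423, SD, n = 4). It was 697.9, 931.9, 797.3 and 1025 at 1.5 mm (863 ± 144, SD, n = 4). It was 892.3, 2232, 2003 and 1929 at 2.0 mm (1764 ± 595, SD, n = 4). In 3 of the 4 arrays at 2.0 mm the gene was above every other array of this line, and array 1 was within the range of 1.5 mm. The rise from 1.5 mm to 2.0 mm was 1.95-fold (log2 change 0.96, standard error 0.264, adjusted p = 0.0453 in limma). It did not pass without the arrays numbered 2, 3 or 4 (adjusted p = 0.0615, 0.202 and 0.173 in limma) and passed without number 1 (0.0369). The lower shares of all probes that passed are those given for the rise of CKX10.

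The Mu-active intensities of GRMZM2G113794 were 1071, 1325, 810.9 and 761.5 at 1.0 mm (992 ± 260, SD, n = 4). At 1.5 mm they were 324.3, 469.5, 432.5 and 1084 (577.6 ± 343, SD, n = 4). At 2.0 mm they were 676.9, 650.3, 1103 and 664.8 (773.9 ± 220, SD, n = 4). At each of the later stages 1 array stood above the other 3, array 4 at 1.5 mm and array 3 at 2.0 mm. No stage change in this line passed the test, with log2 changes of -0.9 from 1.0 mm to 1.5 mm and 0.54 from 1.5 mm to 2.0 mm (adjusted p = 0.156 and 0.437 in limma). The first did pass without the arrays numbered 4, at a log2 change of -1.38 (adjusted p = 0.0356 in limma).

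At 2.0 mm GRMZM2G113794 had the largest difference between the lines among the members. The log2 ratio of Mu-active over Mu-inactive was -0.4, -1.78, -0.86 and -1.54 in arrays 1 to 4, lower in the Mu-active line in 4 of 4, with means of -1.09 and -1.2 in the 2 dye orientations. The estimate was -1.14 (standard error 0.309, 95% interval -1.83 to -0.45), or 2.21-fold lower, with an unadjusted p of 0.0042 and an adjusted p of 0.147 in limma. It thus met the study's threshold of 1.5-fold at an unadjusted p of 0.05 but not the adjusted one. At 1.5 mm the ratio was -1.11, -0.99, -0.88 and 0.08, for an estimate of -0.72 (standard error 0.309, adjusted p = 0.47 in limma), and at 1.0 mm it was -0.22. The change of this ratio from 1.0 mm to 2.0 mm, -0.92 on the log2 scale (95% interval -1.9 to 0.05), did not pass (adjusted p = 0.617 in limma).

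**Figure D2:**
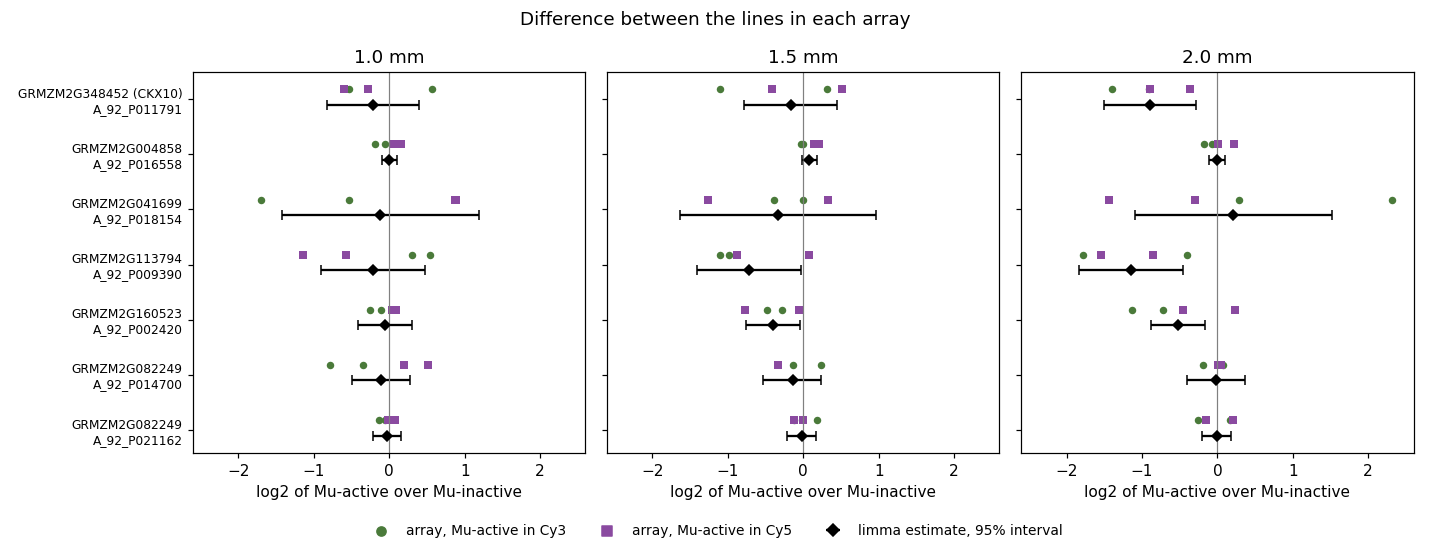
Log2 ratio of Mu-active over Mu-inactive for each member probe, by anther length, where circles are arrays with the Mu-active line in Cy3, squares are arrays with it in Cy5, and diamonds with bars are the limma estimates with their 95% intervals. At 2.0 mm all 4 arrays were below 0 for CKX10 and GRMZM2G113794, and for GRMZM2G041699 they spread from -1.44 to 2.31.

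GRMZM2G160523, also assigned to the pathway without an enzyme name, varied less between stages. In the Mu-inactive line its intensity was 771.1, 639.6, 597.7 and 698.7 at 1.0 mm (676.8 ± 75.3, SD, n = 4). It was 854.4, 1018, 1016 and 805.4 at 1.5 mm (923.6 ± 110, SD, n = 4). It was 793.7, 954.6, 659.7 and 683.8 at 2.0 mm (772.9 ± 134, SD, n = 4). All 1.5 mm arrays were above all 1.0 mm arrays, and those of 2.0 mm overlapped both. From 1.0 mm to 1.5 mm the gene rose 1.36-fold (log2 change 0.45, standard error 0.118, adjusted p = 0.0376 in limma). It did not pass when any of the array numbers was left out (adjusted p from 0.0682 to 0.197 in limma). Fewer of all probes passed then too, 2.89% to 6.23% against 11.5%. Under 10 other settings that left no array out, the rise passed in 5. Without normalization between arrays the change was -0.59, where the median of all probes was -0.53.

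The Mu-active intensities of GRMZM2G160523 were 713.7, 539, 638.3 and 712.6 at 1.0 mm (650.9 ± 82.5, SD, n = 4). At 1.5 mm they were 701.9, 728.3, 597.1 and 772.3 (699.9 ± 74.4, SD, n = 4). At 2.0 mm they were 480.9, 435.2, 773.5 and 500.1 (547.4 ± 153, SD, n = 4). Array 3 was the exception at 2.0 mm, above the other arrays of this stage, and no stage change in this line passed the test. The log2 ratio of Mu-active over Mu-inactive was -0.28, -0.48, -0.77 and -0.06 at 1.5 mm, for an estimate of -0.4 (standard error 0.16, adjusted p = 0.43 in limma). At 2.0 mm it was -0.72, -1.13, 0.23 and -0.45, for an estimate of -0.52 (standard error 0.16, adjusted p = 0.202 in limma), and its mean was -0.93 with the Mu-active line in Cy3 and -0.11 with it in Cy5. At 1.0 mm the log2 ratio was -0.06 (95% interval -0.42 to 0.3).

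GRMZM2G082249, annotated as a cytokinin-O-glucosyltransferase, had no change with stage or line that passed the test at either of its probes. At the brighter probe, A_92_P014700, the Mu-inactive intensities were 930.2, 775.6, 632.1 and 807.5 at 1.0 mm, 574.9, 547.9, 493.4 and 887 at 1.5 mm and 722.6, 574, 457.4 and 538.1 at 2.0 mm. The means were 786.4 ± 123, 625.8 ± 177 and 573 ± 111 (SD, n = 4 each). The Mu-active means were 751.5 ± 219, 567.8 ± 151 and 562.9 ± 71.4 (SD, n = 4 each). Both lines had their lowest mean at 2.0 mm, but the arrays overlapped, and the log2 changes from 1.0 mm to 2.0 mm of -0.46 and -0.37 did not pass (adjusted p = 0.142 and 0.401 in limma). The log2 ratios between the lines were -0.11, -0.14 and -0.02 at the 3 stages, each smaller than its standard error of 0.172.

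The dimmer probe, A_92_P021162, whose sequence is printed above, stayed close to the cutoff. Its mean intensity in the Mu-inactive line was 122.7 ± 10.1, 114.6 ± 10.6 and 108.4 ± 15.7 at 1.0 mm, 1.5 mm and 2.0 mm (SD, n = 4 each), and in the Mu-active line it was 120.2 ± 11.7, 113.4 ± 17.6 and 108.9 ± 25.2 (SD, n = 4 each). The 6 means spanned 1.13-fold, against 1.4-fold at A_92_P014700, and ran down from 1.0 mm to 2.0 mm in both lines at both probes. Its log2 ratios between the lines were -0.03, -0.02 and -0.01.

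GRMZM2G004858, which the study assigned to the same pathway and its tables describe as a hypothetical protein, was the dimmest member. In the Mu-inactive line its intensity was 105.2, 101.2, 116.3 and 103.5 at 1.0 mm (106.6 ± 6.72, SD, n = 4). It was 94.65, 90.65, 81.33 and 89.35 at 1.5 mm (88.99 ± 5.59, SD, n = 4), and 103.5, 108.6, 88.28 and 97.99 at 2.0 mm (99.58 ± 8.69, SD, n = 4). All 1.5 mm arrays were below all 1.0 mm arrays, and the mean at 1.5 mm was only 1.02 times the cutoff. The log2 change of -0.26 (standard error 0.077) did not pass at an adjusted p of 0.0554 in limma, and it did pass under some other settings, among them with the scanner's processed signals, which gave -1.35 (adjusted p = 0.0189 in limma). In the Mu-active line the means were 107.2 ± 16.7, 93.79 ± 3.32 and 98.94 ± 5.57 (SD, n = 4 each), and the log2 ratios between the lines were 0, 0.08 and -0.01.

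Counted over the members, no line difference passed an adjusted p of 0.05 in limma at any stage, 0 of 7 each time, where 0.376% of all probes passed at 1.0 mm, 0.471% at 1.5 mm and 0.866% at 2.0 mm. At an unadjusted p under 0.05 there were 0, 2 and 3 of the 7, against 8.85%, 10.0% and 12.3% of all probes. At the study's threshold there were 0, 1 and 2, against 2.18%, 1.99% and 2.80%, namely GRMZM2G113794 at 1.5 mm and 2.0 mm and CKX10 at 2.0 mm. The estimates were below 0 for 7, 6 and 6 of the 7 probes, with medians of -0.11, -0.17 and -0.02 on the log2 scale where the median of all probes was 0. Those at 1.0 mm hold the values used in the choice of the genes, and GRMZM2G004858 is counted there at 0.998-fold. When both channels were fitted separately, GRMZM2G113794 and GRMZM2G160523 passed at 2.0 mm (adjusted p = 0.0312 and 0.0351 in limma) among 921 probes in all. No change of a line difference between stages passed either, 0 of 7 for each pair of stages, nor did any of the 7 reach an unadjusted p of 0.05, where 0.00952%, 0% and 0.0523% of all probes passed the adjusted test and 8.45%, 6.73% and 8.57% the unadjusted one (1.0 mm to 1.5 mm, 1.5 mm to 2.0 mm and 1.0 mm to 2.0 mm).

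Between stages, 5 of 42 member comparisons passed the adjusted test, and all 5 were increases. Without normalization between arrays that of GRMZM2G160523 turned to -0.59, where the median of all probes was -0.53 and 72.1% of them passed. In the Mu-inactive line there was 1 of 7 from 1.0 mm to 1.5 mm (11.5% of all probes passed), 2 of 7 from 1.5 mm to 2.0 mm (10.3%) and 1 of 7 from 1.0 mm to 2.0 mm (17.5%). For the Mu-active line there was 0 of 7, 0 of 7 and 1 of 7 (5.66%, 5.38% and 13.9%), in the same order of stages. At an unadjusted p under 0.05 there were 3, 4 and 2 of 7 in the Mu-inactive line (27.4%, 25.3% and 30.5% of all probes) and 2, 2 and 1 of 7 in the Mu-active line (23.1%, 20.3% and 27.7%). None of the 5 increases passed with every array number left out in turn, and 3 of them passed without number 1. That a change passed in the Mu-inactive line and not in the Mu-active line is no difference between the lines, for which the tests of the change of the line difference are given above. Ssu1 (GRMZM2G098520), which encodes the small subunit of Rubisco and marks green tissue, moved with the stages, from 926.2 ± 319 at 1.0 mm to 5826 ± 479 at 2.0 mm in the Mu-inactive line (SD, n = 4, log2 change 2.71, adjusted p = 0.00022 in limma) and from 1882 ± 1370 to 6655 ± 512 in the Mu-active line (SD, n = 4, log2 change 2.12, adjusted p = 0.014 in limma). Its part, and that of the falling meiotic sum, in the rises of GRMZM2G041699 and CKX10 was not tested.

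**Figure D3:**
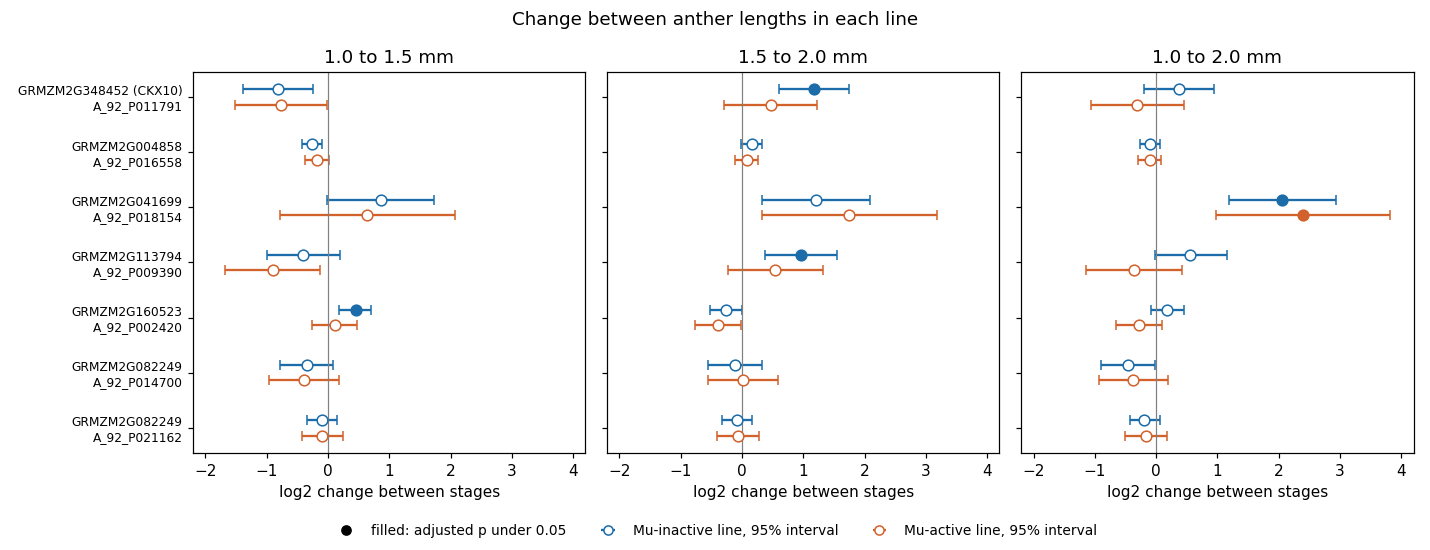
Log2 change of intensity between anther lengths for each member probe in the Mu-inactive and the Mu-active line, with 95% intervals, where filled symbols have an adjusted p under 0.05 in limma. The 5 filled symbols are all increases. That of GRMZM2G160523 turned to -0.59 without normalization between arrays, where the median of all probes was -0.53. The largest are the changes of GRMZM2G041699 from 1.0 mm to 2.0 mm, 2.06 in the Mu-inactive and 2.39 in the Mu-active line.

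Other steps of cytokinin synthesis, inactivation and signalling were represented by 7 other probes. These were found by annotation words or gene symbols among the probes that the supplementary tables list. The rest of the array was not searched, so it may hold further cytokinin probes. None of the 7 differed between the lines at an adjusted p of 0.05 at any stage. At the study's threshold there were 1, 0 and 1 of the 7 at the 3 stages, against 2.18%, 1.99% and 2.80% of all probes. They were GRMZM2G024476 at 1.0 mm and GRMZM2G156127 at 2.0 mm. Between stages 1 of 7 fell from 1.0 mm to 1.5 mm in the Mu-inactive line and 1 of 7 fell from 1.0 mm to 2.0 mm in each line. These falls were all of ZmHK1 (GRMZM2G151223), a histidine kinase, opposite in direction to the members that rose. Its intensity in the Mu-inactive line was 888.3, 932.4, 939.1 and 1057 at 1.0 mm, 566.9, 600.5, 387.7 and 501.7 at 1.5 mm, and 866.9, 500, 349 and 637.3 at 2.0 mm. All 1.0 mm arrays were above all later arrays, with a log2 change of -0.91 to 1.5 mm (standard error 0.227, adjusted p = 0.0305 in limma) and of -0.77 to 2.0 mm (adjusted p = 0.0412 in limma). In the Mu-active line it fell by 0.92 on the log2 scale from 1.0 mm to 2.0 mm (standard error 0.213, adjusted p = 0.0192 in limma), from a mean of 975.8 ± 289 to one of 510 ± 120 (SD, n = 4). The change to 1.5 mm did not pass with any array number left out (adjusted p from 0.0562 to 0.11 in limma), and the changes to 2.0 mm passed only without number 1 in the Mu-inactive line and only without number 4 in the Mu-active line. Fewer of all probes passed too, 2.89% to 6.23% against 11.5% for the change to 1.5 mm. For those to 2.0 mm it was 7.89% to 12.7% against 17.5% (Mu-inactive) and 3.88% to 11.1% against 13.9% (Mu-active). With the scanner's processed signals the changes to 2.0 mm were -0.16 and -0.32 in the 2 lines and did not pass (adjusted p = 0.693 and 0.495 in limma).

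Among the other enzymes that inactivate cytokinin, CKX4b (GRMZM2G024476), also a cytokinin dehydrogenase, was brighter in the Mu-active line in 4 of 4 arrays at 1.0 mm, where CKX10 was not. Its mean intensity was 81.72 ± 10.3 in the Mu-inactive line, near the cutoff, ON in 2 of 4 arrays and well above background in 1, and 291.9 ± 212 in the Mu-active line (SD, n = 4 each), for a log2 ratio of 1.53 (standard error 0.341, adjusted p = 0.11 in limma). At 1.5 mm the log2 ratio was 0.71 with 3 of 4 arrays higher, and at 2.0 mm it was -0.14, and neither passed the test. GRMZM2G156127, annotated as a cytokinin-N-glucosyltransferase, was lower in the Mu-active line in 3 of 4 arrays at 2.0 mm, with a mean intensity of 146.5 ± 54.8 against 755.6 ± 705 (SD, n = 4 each) and a log2 ratio of -1.82 (standard error 0.456, adjusted p = 0.119 in limma). The probes of the isopentenyl transferase GRMZM2G102915 and of the response regulator GRMZM2G148056 had means within 1.07 times the cutoff or below it in every line and stage. The probe of GRMZM2G363545, annotated as a further cytokinin-O-glucosyltransferase, had means between 105.4 and 137.5, and that of the histidine kinase gene GRMZM2G155767 had means between 127.9 and 248. Another 4 genes that the study places in these pathways were paired with no probe and were not analysed here. One of them is spelled GRMZM2G363554, close to the GRMZM2G363545 measured above, and whether both spellings mean 1 gene was not settled.

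**Figure D4:**
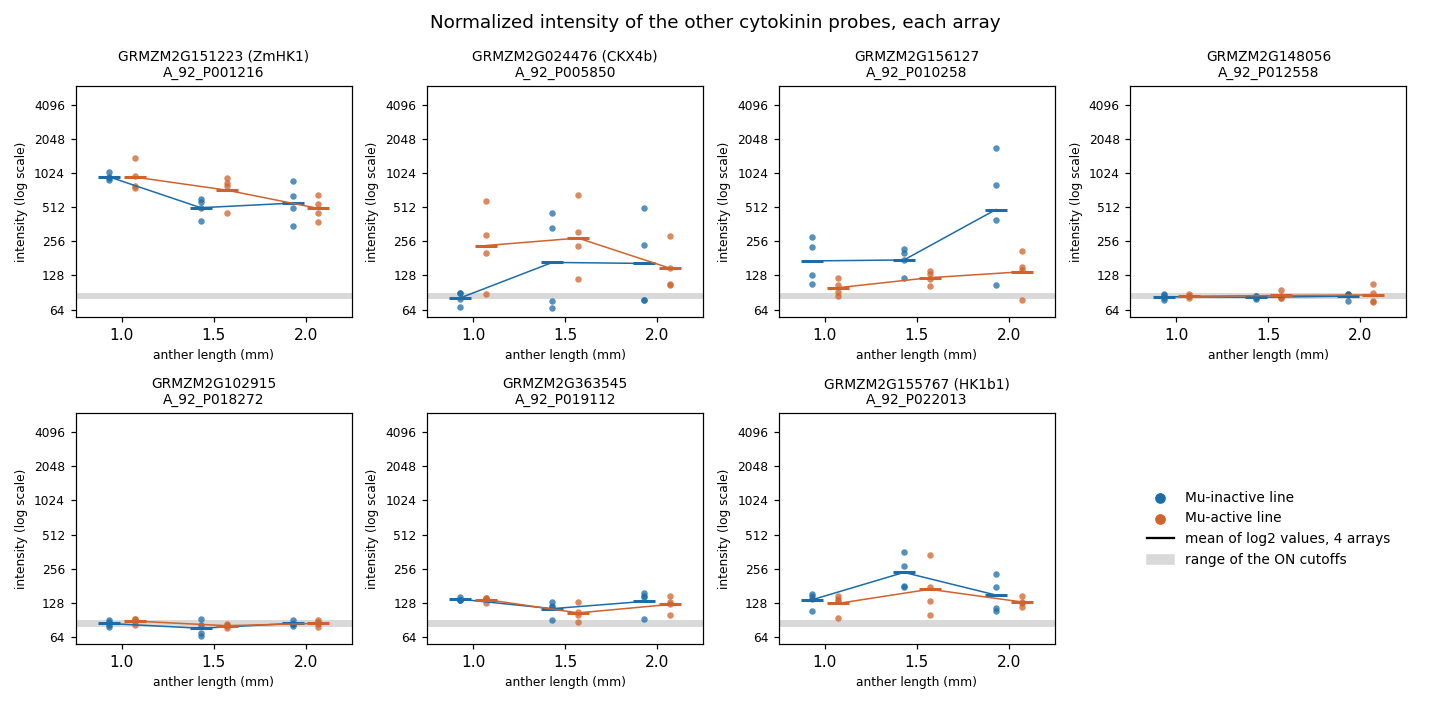
Normalized intensity (log axis) of the 7 other cytokinin probes in each array, by anther length in mm and by line, drawn as for the members with the grey band spanning the cutoffs for ON. ZmHK1 was highest at 1.0 mm in both lines, and the isopentenyl transferase and response regulator probes lay within or beside the band.

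The genes whose profiles were most like those of the members were sought over the 24 channels, as the smallest root mean square difference of centred log2 intensities among 1054 to 1056 annotated probes ON in both lines at all stages. This is a description over channels that share arrays and slides. Closest to GRMZM2G113794 were GRMZM2G060183 (0.466), annotated as a receptor, and CKX10 (0.486), against a median of 0.806 over all candidates. CKX10 in turn was closest to GRMZM2G123178 (0.438), annotated as the receptor protein kinase CLAVATA1, and GRMZM2G060183 (0.459), with a median of 0.742. Closest to GRMZM2G041699 were GRMZM2G007347 (0.631), annotated as a family 43 glycosyl hydrolase, and GRMZM2G063342 (0.672), annotated as a heavy metal transport/detoxification protein, with a median of 1.24. For GRMZM2G160523 they were GRMZM2G054247 (0.247) and GRMZM2G460396 (0.266), for A_92_P014700 of GRMZM2G082249 they were GRMZM2G120408 (0.263) and GRMZM2G076329 (0.273), and for GRMZM2G004858 they were GRMZM2G136662 (0.112) and GRMZM2G113990 (0.129). These last 3 members varied little, with an SD over the channels of 0.309, 0.353 and 0.14 on the log2 scale, so that small differences are found for any other probe of low variance. The SD was 0.674 for GRMZM2G113794, 0.607 for CKX10 and 1.19 for GRMZM2G041699, each below its median above. A flat profile would differ from a member by that SD.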

How the data were processed

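The authors deposited 1 scanner file per array, written by Agilent Feature Extraction 9.5.3.1 according to the file headers, holding for 43451 spots the median foreground intensity in Cy3 and Cy5, not normalized. The deposited files also hold a log10 ratio (Cy5 over Cy3) and a processed intensity from the software, both used as alternatives. A further deposited table gives log2 ratios of the lines, 1 pooled value per probe and stage, which was used only to read the direction of the ratios (r = 0.991, 0.988 and 0.991 across probes with the ratios computed here). The genome build is not given in the sources used here.

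In R 4.3.3, limma 3.58.1 was used to normalize the median foreground values, first within arrays by loess and then over all channels by quantiles, without background subtraction. These steps follow the study's methods, which write "quartile" where quantile was used here. Control spots were left out and outlier-flagged spots were given no weight. Line differences were fitted on the log2 ratio of each of 12 arrays, with dye and each stage as terms. Stage changes were fitted in each line on its 12 channels with a dye term. P-values were adjusted by the Benjamini-Hochberg method over 42034 probes, and the threshold was an adjusted p of 0.05. Intensities are given as mean ± SD over 4 arrays, whose number limits the precision.

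The supplementary tables pair probes with 6697 gene models, and 5319 of these models are in the reference table. Genes named are the members, those probes of a cytokinin list that passed a test, and the 2 closest probes per gene. The list held 14 probes with the members, the others found by annotation words or gene symbols among the probes in the supplementary tables. CKX4b, GRMZM2G156127 and the remaining list probes, apart from ZmHK1, passed no adjusted test and were named with their values in view. The members and lists were chosen with earlier results of these data known. Deviations of the log2 ratio in arrays of the same number at different stages were little correlated (median r 0.04, range -0.2 to 0.17). This does not exclude a pairing by array number. Alternatives covered normalization, background correction, dye term, filters, fits, call rules and arrays left out. The fits were tested on simulated data, and figures were drawn with Python 3.11.15 and matplotlib 3.10.9.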

Additional observations from a re-analysis of the deposited data

Results flagged for a closer look

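GRMZM2G113794, of the cytokinin-O-glucoside pathway, had an intensity of 1103 in array 3 of the Mu-active line at 2.0 mm, apart from the other 3 arrays, which lay between 650.3 and 676.9. Its gap to the nearest array, as a share of the range, was 0.941, above Dixon's 95% critical value for 4 values. Of the 63 groups of 4 arrays examined, this was the only one past that value, and chance alone passes it in about 1 in 20 groups.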

How the results depend on the processing

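Line differences of the members passed in 0 of 7 under all alternatives except the study's threshold (1 at 1.5 mm, 2 at 2.0 mm) and separate channel fits (2 at 2.0 mm). Among all probes 1.99%, 2.80% and 2.19% passed there. Exchanging the lines turns the sign of every line difference, so that 7, 6 and 6 of the 7 estimates would be above 0, and gives each line's levels and stage changes to the other, so that the counts of stage changes would be 1, 2 and 1 in the Mu-active and 0, 0 and 1 in the Mu-inactive line. Stage changes depended on scaling. Without normalization between arrays, the median of all probes shifted by -0.53 from 1.0 mm to 1.5 mm in the Mu-inactive line and by -0.55 in the Mu-active line, and 5, 0 and 5 members (Mu-inactive) and 6 and 6 (Mu-active, from 1.0 mm) passed, where 72.1%, 1.21% and 67.9% and 70.1% and 65.4% of all probes did. Changes that turned sign there were, in the Mu-inactive line from 1.0 mm to 1.5 mm, GRMZM2G041699 (-0.16) and GRMZM2G160523 (-0.59), to 2.0 mm, CKX10 (-0.64), GRMZM2G113794 (-0.41) and GRMZM2G160523 (-0.83), and in the Mu-active line to 1.5 mm, GRMZM2G041699 (-0.38) and GRMZM2G160523 (-0.93), and from 1.5 mm to 2.0 mm A_92_P021162 (0.01). With processed signals, A_92_P014700 of GRMZM2G082249 turned to 0.03 (Mu-inactive, to 1.5 mm) and 0.02 (Mu-active, to 2.0 mm). Line ratios within 0.01 of 0 at 2.0 mm also turned, GRMZM2G004858 with normexp (0.04) and A_92_P021162 with Aquantile or no normalization between arrays (0.01 each) and normexp (0.03), as did the change of the A_92_P021162 ratio from 1.0 mm to 1.5 mm with normexp (-0.06) and the scanner log ratio (-0.18). In the Mu-inactive line from 1.0 mm to 1.5 mm the count of 1 became 2 with Aquantile, normexp, processed signals or ON probes only. All probes passed at 11.6%, 11.2%, 18.8% and 18% there, against 11.5%. The count became 0 without the dye term (9.46%), with a 2-fold limit, or with any array number left out (0 to 0, 2.89% to 6.23%). With processed signals GRMZM2G160523 was lost, and GRMZM2G004858 and GRMZM2G041699 passed (adjusted p = 0.0189 and 0.0312 in limma). With separate channels it was also lost, and GRMZM2G004858 passed (adjusted p = 0.026 in limma). From 1.5 mm to 2.0 mm the count of 2 became 1 without the dye term, with separate channels or with a 2-fold limit, and 0 to 2 with an array left out. The share of all probes was 8.18% without the dye term, 9.93% with separate channels and 2.34% to 6.91% with an array left out, against 10.3%. From 1.0 mm to 2.0 mm the count was 0 to 1 with an array left out, where 7.89% to 12.7% of all probes passed against 17.5%. In the Mu-active line processed signals gave 1 from 1.0 mm to 1.5 mm, where 15.4% of all probes passed against 5.66%. With an array left out the counts from 1.0 mm were 0 to 1 to 1.5 mm and 0 to 1 to 2.0 mm. All probes then passed at 0.019% to 6.39% and at 3.88% to 11.1%, against 5.66% and 13.9%.

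With the array number as a replicate block in place of the dye term, the count fell from 1 to 0 in the Mu-inactive line from 1.0 mm to 1.5 mm (GRMZM2G160523, adjusted p = 0.0689 in limma) and in the Mu-active line from 1.0 mm to 2.0 mm (GRMZM2G041699, adjusted p = 0.0608 in limma). The share of all probes fell too, to 9.43% from 11.5% and to 10.6% from 13.9%. The block changed no other call of a member, and whether the numbers pair the arrays is not settled. Over 84 probe comparisons and the settings that left no array out, 765 values kept direction, at 2 decimals, and side of the threshold, 28 passed newly, 10 no longer passed and 16 turned sign. With arrays left out, 290 kept both, 2 passed newly, 14 no longer passed and 30 turned sign, in 22 comparisons of which 0 had passed the test. For the line ratio these ranged, at 1.0 mm, from -0.49 to 0.42 (GRMZM2G041699), -0.29 to 0.1 (A_92_P014700) and -0.4 to 0.07 (GRMZM2G113794), at 1.5 mm from -0.09 to 0.04 (A_92_P021162) and -0.45 to 0.19 (CKX10), and at 2.0 mm from -0.06 to 0.04 (GRMZM2G004858), -0.48 to 0.73 (GRMZM2G041699), -0.06 to 0.02 (A_92_P014700) and -0.09 to 0.08 (A_92_P021162). For the change of the ratio they ranged, from 1.0 mm to 1.5 mm, from -0.73 to 0.42 (GRMZM2G041699), -0.26 to 0.24 (A_92_P014700), -0.09 to 0.05 (A_92_P021162) and -0.32 to 0.25 (CKX10), from 1.5 mm to 2.0 mm from -0.17 to 1.32 (GRMZM2G041699), -0.08 to 0.17 (A_92_P021162) and -0.49 to 0.06 (GRMZM2G160523), and from 1.0 mm to 2.0 mm from -0.9 to 1.21 (GRMZM2G041699), -0.16 to 0.28 (A_92_P014700) and -0.04 to 0.08 (A_92_P021162). Stage changes from 1.5 mm to 2.0 mm ranged from -0.25 to 0.1 (A_92_P014700, Mu-inactive), -0.07 to 0.15 (A_92_P014700, Mu-active) and -0.25 to 0.08 (A_92_P021162, Mu-active). The causes were not tested. For the change of the line difference, no normalization between arrays, quantiles without loess and keeping outlier-flagged spots were added after seeing the data, and no member passed under them. All 7 probes stayed ON under each detection setting, except 6 with a cutoff of 5 SD at 1.5 mm in both lines and at 2.0 mm in the Mu-active line, with 4 of 4 arrays required in the Mu-inactive line at 1.5 mm, and with raw signal in the Mu-active line at 1.5 mm. Signal near the negative controls limits GRMZM2G004858 and A_92_P021162.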
